A study of Mus musculus with 4 samples.

Results

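Cytosolic and mitochondrial chaperones are described here by the transcript levels of 39 genes of the HSP90, HSP70, HSP40 and CCT systems and their co-chaperones, among 37583 features in each library. The genes were listed by name. Of the 39 names, 38 matched a feature exactly, and 35 of these had at least 20 exon reads in each pair of libraries. Hspa14 was listed only as 2 overlapping loci and is given apart.

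HSP70 proteins bind exposed stretches of unfolded chains, and J proteins (HSP40) bring clients to them and trigger their ATPase. HSP90 takes over many of these clients, among them kinases delivered by CDC37 and steroid receptors held with p23 and FKBP immunophilins, while the ring-shaped chaperonins CCT (cytosol) and HSP60 with HSP10 (mitochondria) fold proteins inside a chamber. An activated T cell grows and divides fast and needs much of this machinery. The protein kinase CK2 is known to phosphorylate several of these proteins, including CDC37 and HSP90, and the transcription factor HSF1 drives many of their genes under stress.

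The cells were naive CD4+ T cells sorted from spleens of C57BL/6 mice, activated for 24 h with anti-CD3 and anti-CD28 in the culture labelled aTh17. All 4 cultures, controls included, received IL-1β at 10 ng/ml, IL-6 at 10 ng/ml, IL-23 at 20 ng/ml, and anti-IL-4 and anti-IFN-γ at 10 µg/ml each. DMAT was added at 1.5 µM in one culture and CX4945 at 1 µM in another. Both compounds are ATP-competitive CK2 inhibitors, each has its own titled control without inhibitor, and no vehicle is named in the sources used here. Each group held 1 library, so a ratio within a pair has no replicate check. The question is which chaperone transcripts differed when CK2 was inhibited while the cells took on the Th17 programme. Dose and experiment differ between the inhibitors, so their values are set side by side and the difference was not tested.

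The libraries held 2056635 to 2772525 exon reads, of which 81.3% to 81.7% were unique, and 9331 to 9661 genes had at least 10 reads. The T cell markers Cd3e, Cd3g, Cd3d, Cd4 and Cd28 all had reads, with a summed level of 1263 to 1448 CPM (reads relative to the scaled size of the library). NK and erythroid markers were at 0 in every library, 0 to 1 of 4 myeloid and 1 of 4 B cell markers had reads (at most 1.45 CPM), the dendritic markers summed to at most 0.724 CPM, and the CD8 markers to 2.36 to 4.88 CPM. Fewer cells making a transcript and less transcript per cell cannot be told apart in bulk RNA.

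Chaperone transcripts were abundant and stayed close to their controls. The matched members took 2.84% of exon reads in the control for DMAT, 2.74% with DMAT, 2.87% in the control for CX4945 and 2.95% with CX4945 (exact 95% binomial limits 2.72% to 2.76% for the lowest and 2.92% to 2.97% for the highest, for counting error only, since reads are not independent molecules). Per kilobase of exon, Hsp90ab1 was the highest member in every library and Hspa8 came next. By read number Hspa8 ranked 3 among all genes in the control for DMAT and 2 in the other libraries, and Hsp90ab1 held the other of these ranks. No member passed the joint test of both experiments. Among members with at least 1000 reads in the CX4945 pair, the farthest from their control were Hspa8, which was higher, and the mitochondrial chaperonin gene Hspd1, which was lower. Of the 33 with at least 200 reads, the HSP90 co-chaperone gene Fkbp5 was farthest with DMAT (higher) and the J protein gene Dnajb6 with CX4945 (lower).

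**Figure D1:**
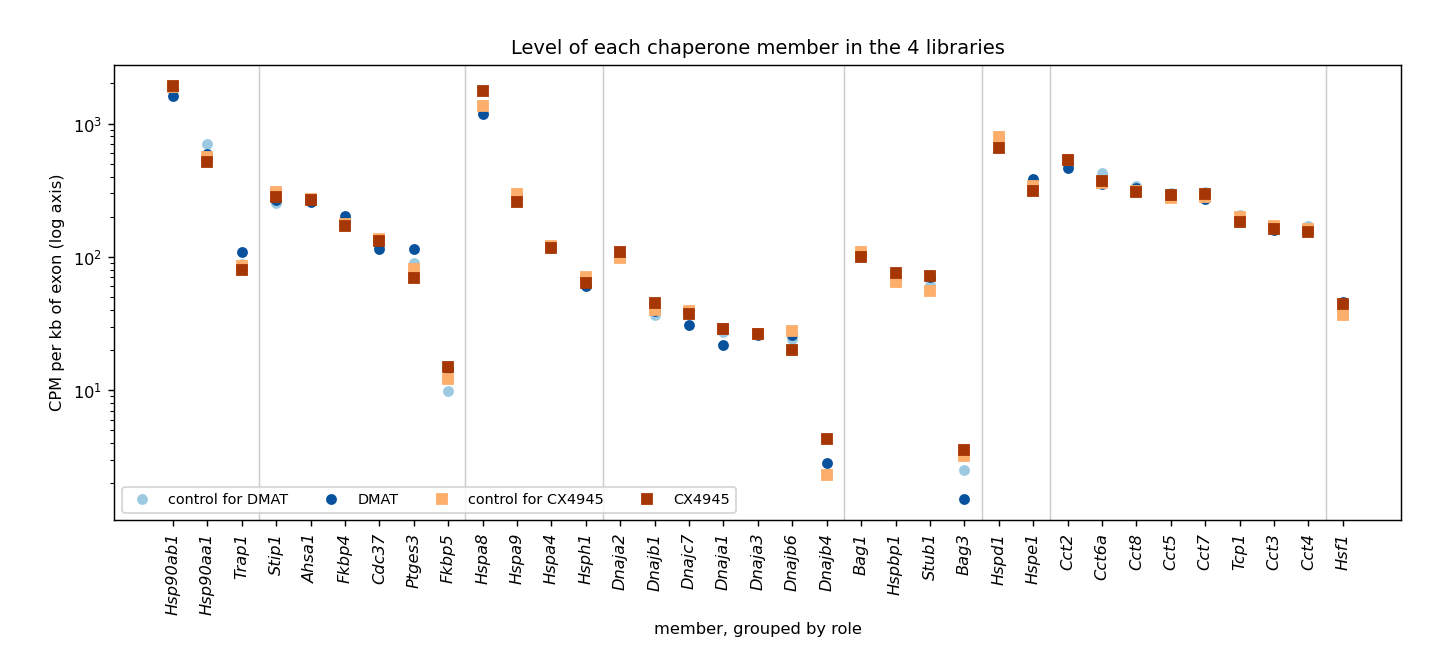
CPM per kilobase of exon (log axis) of the 35 members with at least 20 reads in each pair, grouped by role, 1 point per library. Hsp90ab1 and Hspa8 lie highest, Dnajb4 and Bag3 lowest, and the points of most genes nearly coincide.

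Counted at 1.5-fold or more, 0 of 35 members were higher and 1 (Bag3) was lower with DMAT, where 4.54% of 9649 genes were higher and 4.95% lower. With CX4945, 1 of 35 members (Dnajb4) was higher and 0 were lower, against 3.78% and 4.32% of 9358 genes. Between the control libraries 0 members passed this size either way, where, in the CX4945 control, 4.02% of all genes were higher and 4.99% lower. Both members past 1.5-fold had few reads. Of the 33 members with at least 200 reads in the pair, none reached 1.5-fold with either inhibitor. Few genes of this depth did: 0.896% were higher and 1.38% lower of 5355 with DMAT, and 0.648% and 0.752% of 4787 with CX4945. A count of 0 of 33 is near these shares.

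At a log2 ratio of 0.32 or more and at least 200 reads, a size looked at as an alternative, 2 of 33 members were higher with DMAT (Fkbp5 and Ptges3) and 1 lower (Dnaja1), where 6.29% of genes were higher and 7.21% lower. With CX4945, 2 of 33 were higher (Hspa8 and Stub1) and 1 lower (Dnajb6), where 5.47% and 6.41% of genes were. These counts are near the shares of all genes. Fkbp5 had a log2 ratio of 0.30 with CX4945, just under this size.

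**Figure D2:**
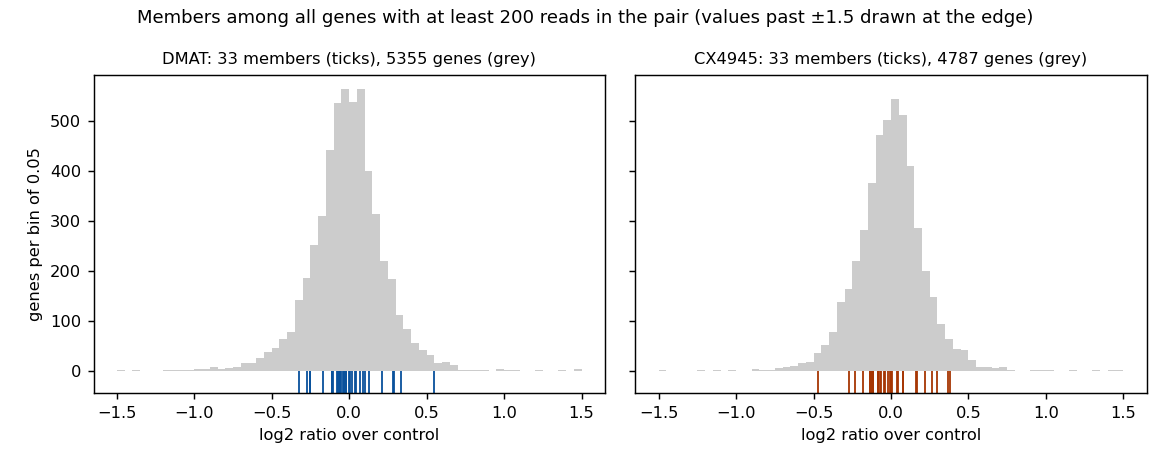
Histogram of log2 ratios over control for all genes with at least 200 reads in the pair (grey, genes per bin of 0.05), with the 33 members as ticks. The ticks span -0.32 to 0.55 with DMAT and -0.47 to 0.38 with CX4945, inside the spread of all genes.

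The median member log2 ratio was -0.03 with DMAT (all genes 0.00) and -0.02 with CX4945 (all genes 0.00). Among members, 21 of 35 were lower than their control with DMAT (all genes 4821 of 9649) and 20 of 35 with CX4945 (all genes 4732 of 9358). In both pairs, which share no library, 13 members were lower, 7 were higher and 15 went opposite ways, or 37.1%, 20.0% and 42.9%. Among all genes these shares were 26.7%, 25.9% and 47.4%. The 7 higher with both were Fkbp5, Dnaja2, Dnajb1, Dnajb4, Hspbp1, Stub1 and Hsf1, none of them a gene of HSP90, HSP70 or CCT itself.

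Both pairs were then fitted together with edgeR's quasi-likelihood test, the pair as a block. At an adjusted p of 0.05, 0 of 35 members rose and 0 fell, where 54 of 9629 genes (0.561%) passed. With DESeq2 only 3 genes passed in all and 0 of them were members, so that count says little about the members. At an unadjusted p of 0.05 in edgeR, 4 of 35 members (11.4%) passed, against 7.23% of all genes: Fkbp5, Stub1 and Hsf1 were higher and Hsp90aa1 lower. Whether the pairs came from separate animals is not stated in the labels, and the p-values therefore cover only the scatter among these libraries, possibly technical.

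**Figure D3:**
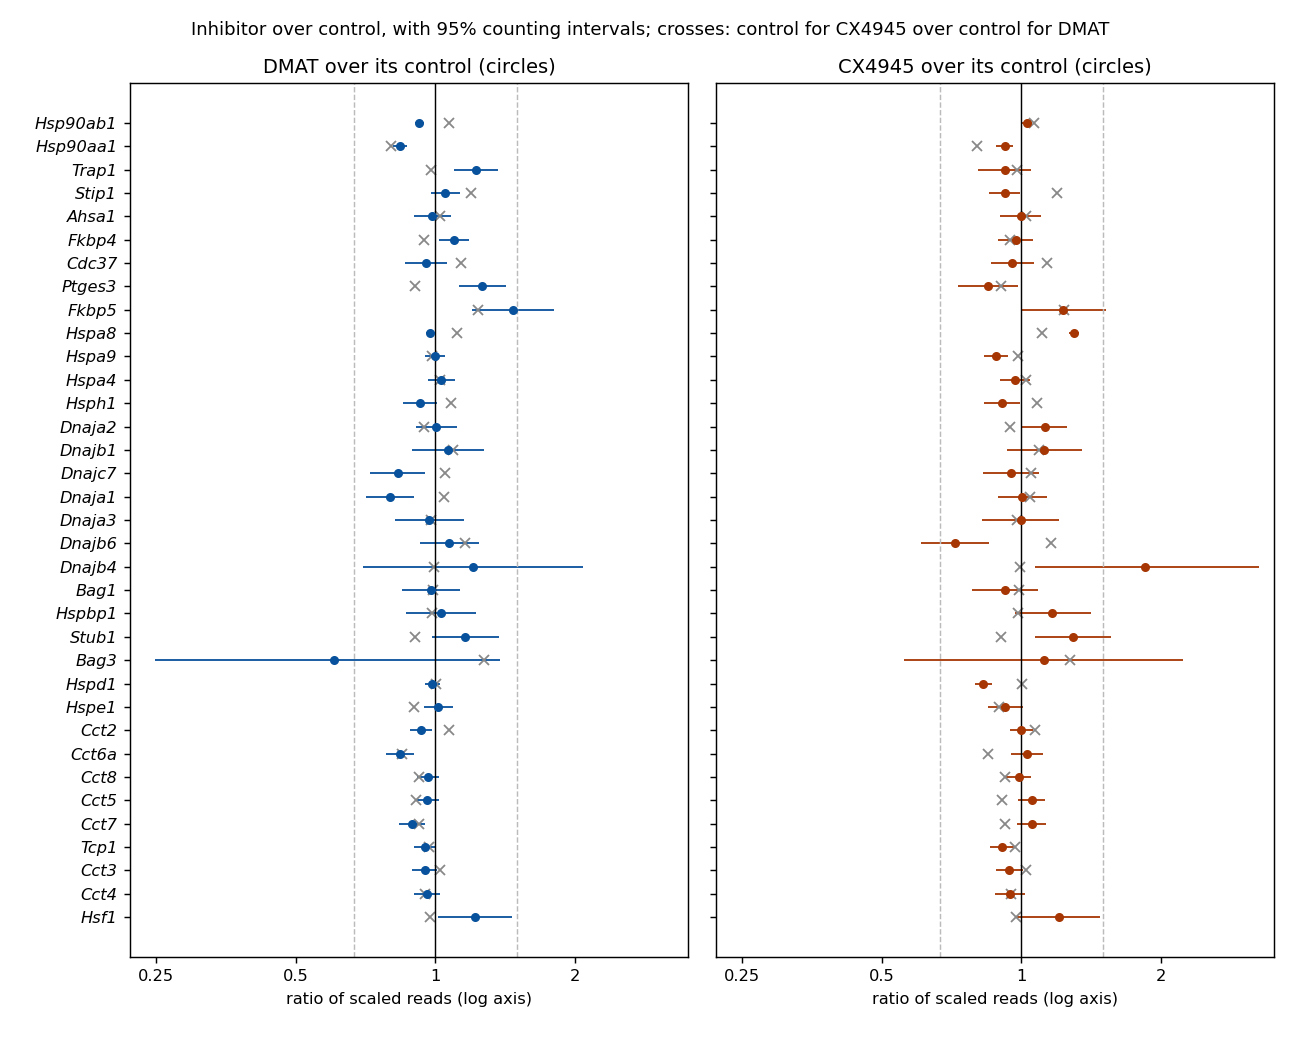
Ratio of scaled reads, inhibitor over its control (circles, log axis), with exact 95% intervals for counting error; grey crosses give the control for CX4945 over the control for DMAT, and dashed lines mark 1.5-fold. All circles but Bag3 with DMAT and Dnajb4 with CX4945 lie within the dashed lines, and these genes have the widest intervals.

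The HSP90 group was led by the constitutive cytosolic form, Hsp90ab1 (mm9 chr17:45704724-45710220). It had 5240.1 CPM in the control for DMAT, 4843 with DMAT, 5593 in the control for CX4945 and 5764 with CX4945. DMAT was thus slightly below its control (log2 ratio -0.11) and CX4945 slightly above (0.04), while the controls differed by 0.09. Hsp90aa1 (chr12:111928815-111940938), the stress-inducible cytosolic form, had 2764, 2318, 2214 and 2037 CPM in the same order. Both inhibitor libraries were below their controls, by log2 ratios of -0.25 and -0.12, but the controls differed from each other by more, -0.32. The control for DMAT was the highest library, and against the control for CX4945 the DMAT library had a log2 ratio of 0.07.

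The joint log2 fold change of Hsp90aa1 was -0.18 ± 0.08 (SE of the fit), with an edgeR adjusted p of 0.570. Its size depends on single libraries: it was -0.03 without the control for DMAT, -0.34 without the control for CX4945, -0.11 without CX4945 and -0.28 without DMAT. Only 17.3% of its reads were unique, so reads of near-identical copies may be included. On unique reads the ratio was 0.877 (95% counting interval 0.807 to 0.953) with DMAT and 0.914 (0.828 to 1.01) with CX4945. Hsp90ab1 exceeded Hsp90aa1 per kilobase by 2.49-fold and 2.74-fold in the DMAT pair and by 3.31-fold and 3.71-fold in the CX4945 pair, control first. The gap between the pairs was larger than the gap within either. Trap1, the mitochondrial HSP90, had log2 ratios of 0.29 and -0.12.

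Among the HSP90 co-chaperones, Cdc37 (chr9:20942985-20954350), which loads kinases onto HSP90, had 295 CPM in the control for DMAT, 282 with DMAT, 336 in the control for CX4945 and 321 with CX4945. Within each pair the values differed little (log2 ratios -0.07 and -0.06), less than the controls did (0.19). Stip1 (chr19:7095186-7114516), the adaptor that links HSP70 to HSP90 and by its median the highest of the co-chaperone genes per kilobase, had 554, 582, 661 and 608 CPM. Its log2 ratios of 0.07 and -0.12 were also smaller than the difference between the controls. Ahsa1, which activates the HSP90 ATPase, had ratios of 0.984 and 0.997.

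Fkbp5 (chr17:28536040-28654469) encodes an immunophilin of steroid receptor complexes, and its gene is a known target of the glucocorticoid receptor. It had 171 reads in the control for DMAT, 231 with DMAT, 175 in the control for CX4945 and 193 with CX4945, or 61.9, 90.9, 76.5 and 94.2 CPM. Each inhibitor library lay above both controls. Other members, such as Dnaja2, Dnajb4 and Hspbp1, had this order too, and others, such as Hsph1, Hspd1 and Bag1, the reverse. The share of all genes in either order was not computed. The Fkbp5 ratio was 1.47 (counting interval 1.20 to 1.799) with DMAT and 1.23 (0.999 to 1.52) with CX4945, while the controls differed by 1.24. Fkbp5 had the smallest p among members in the joint fit, at a log2 fold change of 0.44 ± 0.14 (SE) and an edgeR adjusted p of 0.279, and so did not pass. Without the control for DMAT, the lowest library, the log2 fold change was 0.27.

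Its reads were all unique, and on the reads that cross exon junctions the ratios were 1.77 (1.01 to 3.17) and 2.24 (1.29 to 3.97), from 21 to 42 such reads in each library. Fkbp4, the related immunophilin, had ratios of 1.09 and 0.972. Ptges3, the p23 co-chaperone, had 552 and 641 reads in the DMAT pair and 413 and 314 in the CX4945 pair, ratios of 1.26 and 0.849. Just 10.9% of its reads were unique, and on those the CX4945 ratio was 1.12 (0.710 to 1.75), on the other side of 1.

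Among the members whose proteins CK2 is known to phosphorylate, a list of 6 held Cdc37, Hsp90aa1, Hsp90ab1, Fkbp4, Ptges3 and Hsph1. Of their transcripts 0 passed the joint test (0.561% of all genes did), 3 were lower with both inhibitors, 0 were higher with both and 3 went opposite ways. Among all genes 26.7% were lower with both, 25.9% higher with both and 47.4% opposite, and 6 genes are too few to set against these shares. The list is not complete: HSF1 is also known as a CK2 substrate, and Hsf1 was higher with both. Their median log2 ratio was -0.09 with each inhibitor.

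In the HSP70 group, Hspa8 (chr9:40609067-40613283) encodes HSC70, the constitutive cytosolic HSP70. It had 13924 reads in the control for DMAT, 12503 with DMAT, 12809 in the control for CX4945 and 14908 with CX4945, or 5042, 4919, 5599.6 and 7278 CPM. The CX4945 library stood above the other three, of which the control for CX4945 was the highest. Its ratio was 1.30 (counting interval 1.27 to 1.33) with CX4945 and 0.976 (0.952 to 1.00) with DMAT, and the controls differed by 1.11. Of 861 genes with at least 1000 reads in the CX4945 pair, 18 (2.09%) were at least as far above their control. In the lower direction the same share was 8.83% for Hspa9 with CX4945 and 6.98% of 1161 genes for Hsp90aa1 with DMAT. Hspa8 was picked as the member farthest above its control at this depth, so a small share was built in.

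The same ratio with CX4945 was 1.248 (1.17 to 1.33) on unique reads, which are 13.8% of its reads, and 1.29 (1.23 to 1.36) on reads across exon junctions. Against the control for DMAT the CX4945 log2 ratio was 0.53 instead of 0.38. In the joint fit the log2 fold change was 0.18 ± 0.09 (SE), with an edgeR adjusted p of 0.699. That value rests on the CX4945 library: without it the log2 fold change was -0.12, and without the DMAT library 0.46. These fits leave 1 library in an arm and drop the block. Hspa8 took 0.725% of exon reads with CX4945, against 0.496% to 0.560% in the others, while the other members together took 2.22% with CX4945 (exact limits 2.20% to 2.24%), 2.24% with DMAT (2.23% to 2.26%) and 2.31% and 2.34% in the controls. The limits of the CX4945 and DMAT libraries overlap.

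**Figure D4:**
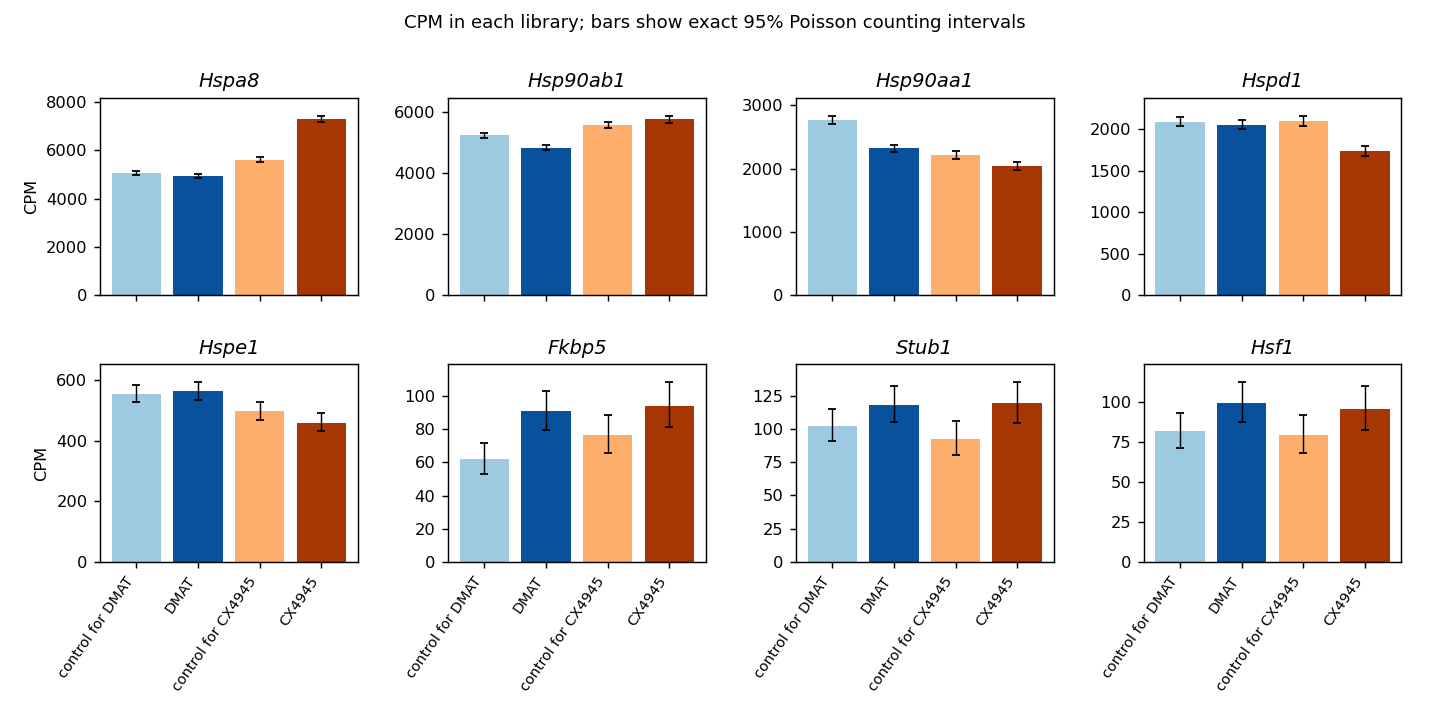
CPM of 8 members in each library, with exact 95% Poisson counting intervals; each axis starts at 0. Hspa8 is highest and Hspd1 lowest in the CX4945 library, and Fkbp5, Stub1 and Hsf1 are higher with either inhibitor than in its own control.

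The heat-inducible HSP70 genes were almost silent. Hspa1a had 1, 0, 1 and 2 reads in the control for DMAT, DMAT, the control for CX4945 and CX4945, none of them unique, and Hspa1b had 5, 6, 0 and 0. Hspb1, the small heat shock protein HSP27, had 0 reads in all 4 libraries, which allows up to 1.09 to 1.46 CPM (3 counts per library). Hspa1b in the DMAT pair was the nearest member below the minimum of 20 reads, and Bag3, with 18 and 10 reads there, the nearest above it. No fold is given for Hspa1a, Hspa1b or Hspb1.

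Hspa9, the mitochondrial HSP70 (mortalin), had 1174, 1173, 1155 and 1018 CPM, and its ratio with CX4945 was 0.881 (0.832 to 0.934). The nucleotide exchange factors Hspa4 and Hsph1 (HSP110) gave 1.03 and 0.927 with DMAT, and with CX4945 they gave 0.968 and 0.908. The longer Hspa14 locus, which encodes a ribosome-associated HSP70, had 720, 719, 598 and 494 reads, with log2 ratios of 0.12 and -0.12, and the shorter locus inside it had none. Apart from Hspa8, no gene of the group with at least 20 reads reached a log2 ratio of 0.32 either way.

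The J protein genes had log2 ratios of -0.47 to 0.83 with CX4945, and of -0.47 to 0.17 over the 6 with at least 200 reads, which leaves out Dnajb4. Dnajb4 (chr3:151841475-151873243) had 28 reads in the control for DMAT, 31 with DMAT, 23 in the control for CX4945 and 38 with CX4945. Its log2 ratio with CX4945 was 0.83, from a ratio of 1.85 with a counting interval of 1.07 to 3.24. With DMAT the interval ran from 0.698 to 2.08, and the joint log2 fold change of 0.58 had an edgeR adjusted p of 0.782. Without the CX4945 library it was 0.26 and without the DMAT library 0.89. So few reads leave most of the size undetermined.

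Dnajb6 (chr5:30062228-30113018), which suppresses protein aggregation, had 138, 148, 160.0 and 115 CPM. The CX4945 library was the lowest, at a ratio of 0.720 (0.609 to 0.850), while with DMAT the ratio was 1.07. On unique reads, 28.3% of its total, the CX4945 ratio was 0.644 (0.466 to 0.883). On reads across exon junctions it was 0.871 (0.611 to 1.24), an interval that holds 1. Against the control for DMAT the CX4945 log2 ratio was -0.26 instead of -0.47. Dnaja1 (chr4:40669183-40684182), a main cytosolic partner of HSC70, had 236, 188, 247 and 248 CPM. Here the DMAT library was the lowest, at a ratio of 0.798 (0.707 to 0.899), and the CX4945 ratio was 1.00. On unique reads, 46.1% of its total, the DMAT ratio was 0.859 (0.719 to 1.03). On reads across exon junctions it was 0.811 (0.615 to 1.07), and both intervals hold 1. The joint edgeR adjusted p was 0.884 for Dnajb6 and 0.824 for Dnaja1. Without the CX4945 library the joint log2 fold change of Dnajb6 was -0.01, and without the DMAT library that of Dnaja1 was 0.05.

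Dnajc7 (chr11:100444132-100481482), a J protein that binds both HSP70 and HSP90, had ratios of 0.829 and 0.95. Dnaja2 (chr8:88061539-88079170), the highest J protein gene per kilobase, had 293, 294, 277 and 311 CPM and ratios of 1.00 and 1.12. Dnajb1, the stress-inducible J protein, had ratios of 1.06 and 1.12, and Dnaja3, the mitochondrial one, 0.970 and 0.998. With 1 exception, Dnajb4, these genes were within 1.5-fold of their controls with both inhibitors.

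Stub1 (chr17:25967581-25970306) encodes CHIP, the ubiquitin ligase that marks HSP70 and HSP90 clients for degradation. It had 283 reads in the control for DMAT, 302 with DMAT, 212 in the control for CX4945 and 245 with CX4945, or 102, 119, 92.7 and 119.6 CPM. Both inhibitor libraries lay above both controls. As given for Fkbp5, some members shared this order, others had the reverse, and its share among all genes was not computed. The ratios were 1.16 (0.983 to 1.37) and 1.29 (1.07 to 1.56), and the joint log2 fold change was 0.29 ± 0.12 (SE) with an edgeR adjusted p of 0.570. Its unique reads, 27.0% of the total, gave larger ratios, 1.47 (1.07 to 2.03) from 70 and 94 reads and 1.85 (1.26 to 2.76) from 44 and 73 reads. On unique reads the joint log2 fold change was 0.70 with an edgeR adjusted p of 0.0927. In the deposited coordinates Stub1 overlaps its neighbour Jmjd8, and the strand of the reads is not given in the sources used here, so reads of the overlap cannot be assigned with certainty.

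Of the HSP70 exchange factors, Bag1 (chr4:40883431-40895314), the highest per kilobase, had 146, 143, 144 and 133 CPM. Its ratios were 0.979 and 0.920, and those of Hspbp1 were 1.03 and 1.17. Bag3 (chr7:135667097-135690491), a stress-inducible partner of HSP70 in autophagy, had 18 reads in the control for DMAT, 10 with DMAT, and 19 in each library of the CX4945 pair. The DMAT library was the lowest, but its ratio of 0.604 had a counting interval of 0.249 to 1.38, so no difference was detectable at this depth.

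Hspd1 and Hspe1 encode the mitochondrial chaperonin HSP60 and its lid HSP10, and they lie head to head. Their nearest RefSeq starts on GRCm38.p6 that face each other, the downstream one of 2 for Hspd1, are 216 bases apart, and in the deposited mm9 coordinates the gene bodies overlap by 112 bases. HSF1 binds heat shock elements, inverted repeats of the unit GAA spaced by a pair of free bases. Promoter windows from RefSeq (250 bases before to 50 after a start) were used for 33 of the 39 members, and those of Hsp90aa1, Hsp90ab1, Hspa8, Hspa9, Hsf1 and Cct4 were not used here. Elements of 3 units, GAANNTTCNNGAA or TTCNNGAANNTTC on either strand, were found in 4 of the 33 (12.1%), against 179 of 27025 genes (0.662%). Their 2-unit form, GAANNTTC or TTCNNGAA, which each longer element contains, was found in 16 of 33 (48.5%), against 17.0% of genes. The stretch between Hspd1 and Hspe1 is shown because its 2 overlapping 3-unit elements are read in both directions, beside the elements of Dnajb6 and Hsph1. Capitals mark the elements, and sequences run 5′ to 3′ on the strand of the gene named.
Hspe1, GRCm38.p6 chr1:55088053-55088082, plus strand: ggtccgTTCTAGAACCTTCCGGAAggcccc
Hspd1, same stretch, minus strand: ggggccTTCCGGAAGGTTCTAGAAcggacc
Dnajb6, chr5:29735846-29735870, plus strand: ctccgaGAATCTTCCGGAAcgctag
Hsph1, chr5:149636282-149636306, minus strand: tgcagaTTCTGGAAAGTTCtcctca
The elements end 72 bases before the Hspe1 start and 127 before this Hspd1 start, Dnajb6 has its element 34 bases before its upstream start, and that of Hsph1 begins 15 bases after a start. In the GENCODE vM21 annotation the stretches also lie in an exon of at least 1 transcript, Hspd1-202, Dnajb6-201 and Hsph1-202, and that of Dnajb6 lies in the coding sequence of the gene Gm5129 as well. A match of letters is a description of the window and not a measured binding site.

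Hspd1 (mm9 chr1:55134679-55145087) had 5763 reads in the control for DMAT, 5220 with DMAT, 4796 in the control for CX4945 and 3559 with CX4945, or 2087, 2054, 2097 and 1738 CPM. The first 3 libraries were nearly level and CX4945 was below them. Its ratio with CX4945 was 0.829 (0.793 to 0.866), on unique reads 0.815 (0.761 to 0.873), and on reads across exon junctions 0.796 (0.731 to 0.866). With DMAT it was 0.984 (0.948 to 1.02). Of 861 genes with at least 1000 reads in the CX4945 pair, 25 (2.90%) were at least as far below their control. Hspd1 was picked as the member farthest below at this depth, so a small share was built in. In the joint fit the log2 fold change was -0.14 with an edgeR adjusted p of 0.779.

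Hspe1 (mm9 chr1:55144976-55148151) had 1531, 1429, 1138 and 941 reads, or 554, 562, 497 and 459 CPM. CX4945 was again the lowest library, but here the control for CX4945 was already below the DMAT pair. The CX4945 ratio was 0.923 (0.846 to 1.01), and 0.852 (0.745 to 0.974) on unique reads. Per kilobase Hspd1 exceeded Hspe1 by 2.04-fold to 2.35-fold in all libraries. The share of exon reads taken by both genes was 0.263%, 0.264%, 0.260% and 0.219% in the order used above, the lowest with CX4945.

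CCT is a ring of 8 different subunits that folds actin and tubulin, and all 8 genes were abundant, at 565.0 to 1046 CPM. With DMAT 8 of 8 were lower than their control, at log2 ratios of -0.26 to -0.05 with a median of -0.08. Of the 5355 genes with at least 200 reads in that pair, 51.4% were lower. The DMAT counting intervals of Tcp1, Cct3, Cct4, Cct5 and Cct8 held 1, and those of Cct2, Cct6a and Cct7 did not. With CX4945 the log2 ratios of the 8 genes lay between -0.14 and 0.08 with a median of -0.01. There 4 were lower and 4 higher, where 49.8% of 4787 genes were lower. The control for CX4945 differed from the control for DMAT by -0.24 to 0.10 with a median of -0.10, as far as DMAT did from its own control. None of the 8 passed the joint test.

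Cct2 (chr10:116488054-116500870), the highest subunit per kilobase, had 971 CPM in the control for DMAT, 904 with DMAT, and 1038 in each library of the CX4945 pair. Its ratios were 0.931 (0.880 to 0.984) and 1.00 (0.943 to 1.06), beside 1.07 between the controls. Cct6a was the subunit farthest from its control with DMAT, with 675, 565.0, 572 and 588 CPM. The control for DMAT was the highest library and the other three were level. Within a library the highest subunit exceeded the lowest per kilobase by 2.89-fold to 3.47-fold, although the subunits stand in equal number in the ring. This spread depends on the exon length used, 1962 bases for Cct2 but 4689 for Cct3 and 4201 for Cct4, the lowest subunits. In CPM, without length, Tcp1 (1036) was above Cct2 in the control for DMAT.

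Hsf1 (chr15:76307865-76331402), the factor that acts through heat shock elements, had 226 reads in the control for DMAT, 253 with DMAT, 182 in the control for CX4945 and 196 with CX4945, or 81.8, 99.5, 79.6 and 95.7 CPM. The controls lay close together and both inhibitor libraries lay above them. As given for Fkbp5, other members shared this order, others had the reverse, and its share among all genes was not computed. The ratios were 1.22 (1.01 to 1.46) and 1.20 (0.978 to 1.48), and the joint log2 fold change of 0.28 ± 0.13 (SE) had an edgeR adjusted p of 0.675. The 4 genes with a 3-unit element, Hspd1, Hspe1, Hsph1 and Dnajb6, stood at 0.984, 1.01, 0.927 and 1.07 times their control with DMAT, and at 0.829, 0.923, 0.908 and 0.720 times with CX4945. Of all genes 50.6% were lower with CX4945. Hspd1 and Hspe1 share the same stretch, and promoters of Hsp90aa1, Hsp90ab1, Hspa8, Hspa9, Hsf1 and Cct4 were not searched. A link between the elements and these ratios was not tested.

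The wider folding network was read from 77 further genes: prefoldins, tubulin cofactors, nascent-chain factors, other HSP90, HSP70, HSP40 and BAG genes, mitochondrial proteases and prohibitins, and stress targets. Of these 76 were found and 71 entered the joint edgeR fit, with 0 passing in either direction and none below 0.05 before adjustment, where 7.23% of all genes were. At 1.5-fold, 1 was higher with DMAT (Hspa2) and 2 lower (Tbcc and Dnajb5), and 1 was higher with CX4945 (Dnajb2) and 1 lower (Hmox1) of the 72 and 70 that entered. Among all genes 4.54% were higher and 4.95% lower with DMAT, and 3.78% and 4.32% with CX4945. None passed 1.5-fold the same way with both. Hmox1, a heme-degrading enzyme induced by stress, had 27 and 17 reads in the DMAT pair and 23 and 9 in the CX4945 pair. Dnajb5, a J protein, had 88 and 46 reads with its control first in the DMAT pair and 71 and 68 in the CX4945 pair. The median log2 ratios of these genes were -0.01 and -0.05, close to those of the members.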

How the data were processed

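RNA sequencing of 4 cultures was analysed, 1 library per group. Libraries were made from total RNA with a TruSeq kit, per the labels' protocols; the build mm9 and CASAVA 1.8.2 are named in the submitters' processing notes, and the aligner, annotation and strand are not given in the sources used here. The values used were deposited counts per gene of all exon reads, made by the authors without normalization, in which reads that fit several places also count.

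Counts were scaled with TMM factors of 0.996 to 1.01 (edgeR 4.0.16, R 4.3.3). The exceptions are the ratios with intervals on unique reads and on reads across exon junctions. These were scaled by each library's total of that kind of read, without TMM factors. Log2 ratios within a pair used a prior count of 2 and at least 20 reads in the pair. Ratios carry exact conditional (Clopper-Pearson) 95% intervals (scipy 1.17.1), which cover counting error only. A quasi-likelihood test in edgeR (filterByExpr, minimum 10; Benjamini-Hochberg adjustment over 9629 genes) took both pairs with the pair as a block, as the titles give it. It leaves 1 residual degree of freedom and 19.7 prior degrees of freedom per gene. The SE is the absolute log2 fold change over the square root of F. Across 6969 genes, the difference between experiments in the controls correlated with that in the inhibitor libraries (r = 0.425, over genes, which are not independent). DESeq2 1.42.0 was an alternative.

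Members and lists were chosen with earlier results of these data known. Full values are given for members 1.5-fold or more from a control, the 10 largest joint changes, the highest gene per kilobase of each role, and Hsp90aa1, Hsp90ab1, Cdc37, Hspa8, Hspd1 and Hsf1. Values of other members, the count at a log2 ratio of 0.32 and 200 reads, the share of genes of at least 1000 reads, and exon junction reads were chosen after the values were seen. Protein sequences were not used here.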

Additional observations from a re-analysis of the deposited data

How the results depend on the processing

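The number of members past 1.5-fold with DMAT was 1, and became 0 at 2-fold, 0 at a minimum of 200 reads and 4 at a log2 ratio of 0.32. With CX4945 it was 1, and became 0 at 2-fold, 0 at a minimum of 200 reads, 4 at a log2 ratio of 0.32, 3 on unique reads (Stub1, Dnajb4 and Dnajb6) and 2 against the control for DMAT (Fkbp5 and Dnajb4). Of 42 such recomputed counts and medians, 33 stayed close to their first value and 9 moved; the median member ratios were among those that stayed. In the joint edgeR fit 0 members passed with each scaling, without the low-count filter, on unique reads, with DESeq2 and with no replicate block, where the pairing was dropped and 1 of 9629 genes passed. DESeq2 called 3 genes, and in edgeR total-count scaling called 101, DESeq2 size factors 81, unique reads 108 and no low-count filter 52, against 54. Leaving out 1 library gave 0 to 1 members (Hspa8, without the DMAT library) and 1 to 73 genes. These fits drop the block and assume that the lone library varies like the other group. Under them the joint log2 fold change ranged from -0.12 to 0.46 for Hspa8, -0.90 to 0.34 for Bag3 and -0.365 to 0.0512 for Dnaja1, turning direction in each; Bag3 stood at 0.0001 without the control for CX4945. The cause was not tested. With 1 library per group, differences of abundant genes are limited by the missing replicates, and those of Bag3, Dnajb4, Hspa1a, Hspa1b and Hspb1 by the number of reads.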
